A study of Mus musculus with 9 samples.

Results

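The genes described here are those named for the machinery that acidifies the epididymal lumen: the vacuolar proton pump (V-ATPase) and its accessory proteins, the carbonic anhydrases, and the SLC4 bicarbonate and SLC9 sodium-proton transporter families. A gene was taken when its symbol began with Atp6v, Atp6ap, Slc4a or Slc9a, or was Car followed by 1 or 2 digits. This rule found 62 of the 32195 genes in the table of unique molecular identifiers (UMIs), of which 27 were V-ATPase genes, 13 were carbonic anhydrases, 11 carried an Slc4a symbol and 11 an Slc9a symbol. Slc4a1ap, Slc9a3r1 and Slc9a3r2 carry the family names without being transporters, since the latter pair encode scaffold proteins of the sodium-proton exchanger NHE3. Cells came from untreated C57BL/6 mice (C57BL/6J in the study's methods) of P42 and P56 (42 and 56 days old). Caput, corpus and cauda were dissociated and captured separately, giving 3 libraries from 1 pool of 5 mice at P42 and 6 libraries from 2 pools at P56, for which 10 mice were used in all and which are called replicate 1 and replicate 2. A library is therefore a pool of animals, with the same mice behind its caput, corpus and cauda. After quality control 42087 barcodes were kept, and 41036 remained once erythroid cells were set aside.

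Sperm are stored quiescent in an acidic, bicarbonate-poor fluid. The clear and narrow cells of the epithelium are specialised proton secretors, which hydrate carbon dioxide with a cytosolic carbonic anhydrase, pump the proton across the apical membrane with the V-ATPase and return bicarbonate to the blood side. Principal cells exchange sodium for protons, and basal cells lie beneath both. The V-ATPase is a rotary motor with a cytosolic V1 sector, which splits ATP, and a membrane V0 sector, which carries the protons. Several of its subunits exist as a widely used isoform and an isoform known from proton-secreting cells of kidney and epididymis: B1 beside B2, C2 beside C1, G3 beside G1, a4 beside a1 and d2 beside d1.

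Cell types were assigned by summing each cell's UMIs over lists of marker genes, none of which was one of the 62. The clear/narrow gate rested on 15 markers, among them Foxi1, the master regulator of proton-secreting cells, and all 15 were detected. It held 3722 cells (9.07% of non-erythroid cells), between 154 and 541 per library. Principal cells numbered 21442, basal cells 2565, macrophages/monocytes 2296, myoid cells/fibroblasts 2438, sperm 836, endothelial cells 692, halo/T cells 531 and ciliated cells 220, and 5297 cells stayed without a type. In the P42 caput, where the study's own labels could be read for 1999 cells, 1549 of 1701 gated cells (91.1%) carried the matching label, and only halo/T cells matched in fewer than 80% of cells. The study annotated its clusters with known markers, which for clear and narrow cells included the members Atp6v1b1 and Car2. The gate did not separate clear from narrow cells. The P42 cauda library stood apart, with 1541 ungated cells, 42640 CPM from the 11 myoid/fibroblast markers against 540.4 to 7847 in the other libraries, 4874 from the 11 macrophage markers against 174 to 1821, and 578 from the clear/narrow markers against 930 to 1699. Of all kept barcode sequences, 116 occurred in more than 1 library. Levels below are CPM, a gene's UMIs divided by all UMIs of the cells summed and scaled to a common total, which stand for captured molecules and were not divided by transcript length.

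The promoters of the 3 members whose level in clear/narrow cells lay furthest above that in principal cells among those with an entry are shown because their transcripts rose together in that cell type. Each window runs from 250 bases before to 50 bases after the RefSeq transcript start on GRCm38.p6 and was searched on both strands for TGTTTAC, a core motif of forkhead factors such as Foxi1. Capitals mark the match. The window of Atp6v1b1 (chr6:83742767-83743066, plus strand) held it 98 bases before the start. Those of Atp6v0a4 (chr6:38124537-38124836, minus strand) and Atp6v1g3 (chr1:138273488-138273787, plus strand) did not.
Atp6v1b1: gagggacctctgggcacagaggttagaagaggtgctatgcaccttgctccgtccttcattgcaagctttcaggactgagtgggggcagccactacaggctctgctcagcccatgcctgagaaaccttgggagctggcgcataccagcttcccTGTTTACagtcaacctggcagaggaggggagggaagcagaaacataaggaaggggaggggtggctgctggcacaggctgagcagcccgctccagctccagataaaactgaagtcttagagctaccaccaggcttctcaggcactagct
Atp6v0a4: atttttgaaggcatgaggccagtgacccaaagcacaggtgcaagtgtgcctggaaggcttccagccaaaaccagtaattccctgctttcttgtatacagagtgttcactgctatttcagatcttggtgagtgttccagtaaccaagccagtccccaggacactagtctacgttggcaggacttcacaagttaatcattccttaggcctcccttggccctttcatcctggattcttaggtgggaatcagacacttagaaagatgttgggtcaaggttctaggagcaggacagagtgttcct
Atp6v1g3: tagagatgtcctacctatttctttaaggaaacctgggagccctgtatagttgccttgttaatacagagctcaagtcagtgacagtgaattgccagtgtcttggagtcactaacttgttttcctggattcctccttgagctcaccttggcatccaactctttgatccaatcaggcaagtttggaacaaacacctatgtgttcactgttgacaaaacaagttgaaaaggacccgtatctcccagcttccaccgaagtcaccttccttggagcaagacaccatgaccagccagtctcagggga
Of the 62 members, 42 had an entry, with 53 windows in all, and the motif lay in 1 of them, that of Atp6v1b1, compared with 1199 of all 32851 windows (3.65%). A match is a run of letters and not a shown binding site.

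The V-ATPase was summed over the 27 genes with an Atp6v or Atp6ap symbol, and a subunit gene named otherwise was not counted. So summed, it made up a several-fold larger part of the transcripts of clear/narrow cells than of any other type. The sum lay between 9555 and 11581 CPM in the 9 clear/narrow samples, with a median of 10775, and between 1788 and 2928 CPM in principal cells, with a median of 2241. No other type exceeded 3980.4 CPM in any library, so clear/narrow cells did not overlap with them. The mean was highest in clear/narrow cells for 24 of the 62 members, and 18 of these 24 carried an Atp6v or Atp6ap symbol. No such share over all genes is given here. The 24 include barely detected members, such as Car1 at 0.097 CPM and Slc4a9 at 0.853 CPM.

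**Figure D1:**
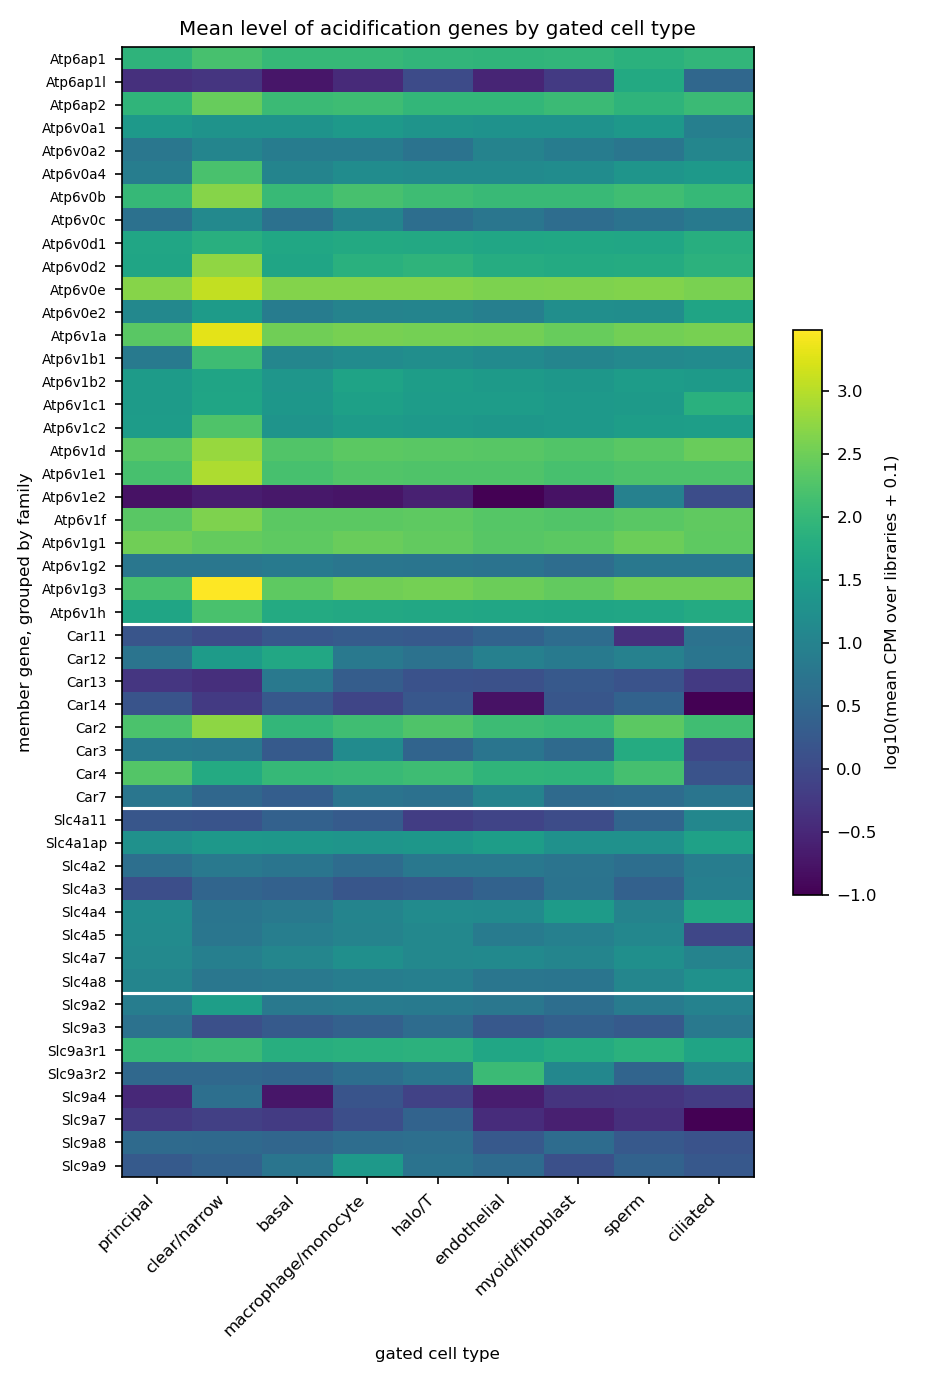
Mean level of the members reported here that reached 2 CPM in at least 1 gated cell type, as log10 of the mean CPM over libraries plus 0.1; rows are genes grouped by family with white lines between families, columns are gated cell types. The clear/narrow column is the brightest for Atp6v1g3 (mean 3071 CPM), Atp6v1a (1976 CPM) and most other V-ATPase genes, Slc9a3r2 peaks in endothelial cells and Slc9a9 in macrophages/monocytes.

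Clear/narrow and principal cells were compared within libraries by the quasi-likelihood test of edgeR. The library was a block, and a call was made at a Benjamini-Hochberg adjusted p under 0.05 over all genes tested. The 9 libraries come from 3 pools, and a pool's segments share mice but count as separate here. The p-values of this fit, also used for basal cells, therefore do not measure the spread between pools. Of 46 members tested, 22 were higher and 10 lower in clear/narrow cells; of all genes tested, 21.7% were called higher and 31.7% lower. The median log2 difference was 0.45 over the members and -0.10 over all genes. V-ATPase genes accounted for 17 of the 22 higher and 2 of the 10 lower. Differences between cell types depend on how libraries are scaled. With library totals alone, without the trimmed mean of M-values (TMM) factors, the median of all genes moved up by 0.44. The split of members was then 30 higher and 9 lower, and that of all 12862 genes 6050 higher and 1988 lower. The 22 higher members and 9 of the 10 lower ones were called in the same direction with both scalings.

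In the V1 sector, Atp6v1b1, the B subunit of proton-secreting cells, had 98.5 to 170 CPM in clear/narrow cells (median 110), and 3.89 to 12.3 CPM in principal cells. The log2 difference was 3.84 (SE 0.16, adjusted p = 8.65e-15), with the same direction in 9 of 9 libraries. Atp6v1g3, the G subunit of the same cells, ran from 2579 to 3798 CPM against 96.6 to 346 CPM and differed by 3.95 (SE 0.18). The catalytic subunit gene Atp6v1a was at 1669 to 2274 CPM against 172 to 311 CPM, a log2 difference of 2.74 (SE 0.10). None of these ranges overlapped. Atp6v1c2 differed by 2.38 (SE 0.24), Atp6v1e1, part of the peripheral stalk, by 2.06 (SE 0.11), Atp6v1h, a regulatory subunit, by 1.47 (SE 0.09) and Atp6v1d, of the central rotor, by 1.098 (SE 0.12). The paired widespread isoforms behaved otherwise: Atp6v1b2 differed by 0.06 (SE 0.10, adjusted p = 0.643), Atp6v1c1 by 0.16 (SE 0.09, adjusted p = 0.134) and Atp6v1g1 was lower by 0.70 (a log2 difference of -0.70, SE 0.08). With library totals alone Atp6v1b2 and Atp6v1c1 were also called higher, by 0.51 and 0.61.

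The V0 sector showed the same arrangement. Atp6v0a4, the a subunit of proton-secreting cells, was at 109 to 204 CPM in clear/narrow cells and 4.44 to 18.1 CPM in principal cells, and its log2 difference of 3.98 (SE 0.15, adjusted p = 2.18e-15) was the largest of the members. Atp6v0d2, which couples the rotor to the membrane ring, had 406 to 747 CPM against 11.5 to 104 CPM and differed by 3.56 (SE 0.27). Atp6v0b, a subunit of the proton-carrying ring, differed by 1.72 (SE 0.09). Atp6v0a1 was lower by a log2 difference of -0.79 (SE 0.12), and Atp6v0d1 differed by 0.15 (SE 0.09, adjusted p = 0.154), which became 0.60 and a call with library totals alone. Of the accessory proteins, Atp6ap2, the (pro)renin receptor, was at 223 to 399 CPM in clear/narrow cells and differed by 1.30 (SE 0.10). Atp6v0c had few UMIs, with a mean of 12.7 CPM in clear/narrow cells. Its pseudogene Atp6v0c-ps2 is also in the table, so how reads were split between the pair is uncertain.

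**Figure D2:**
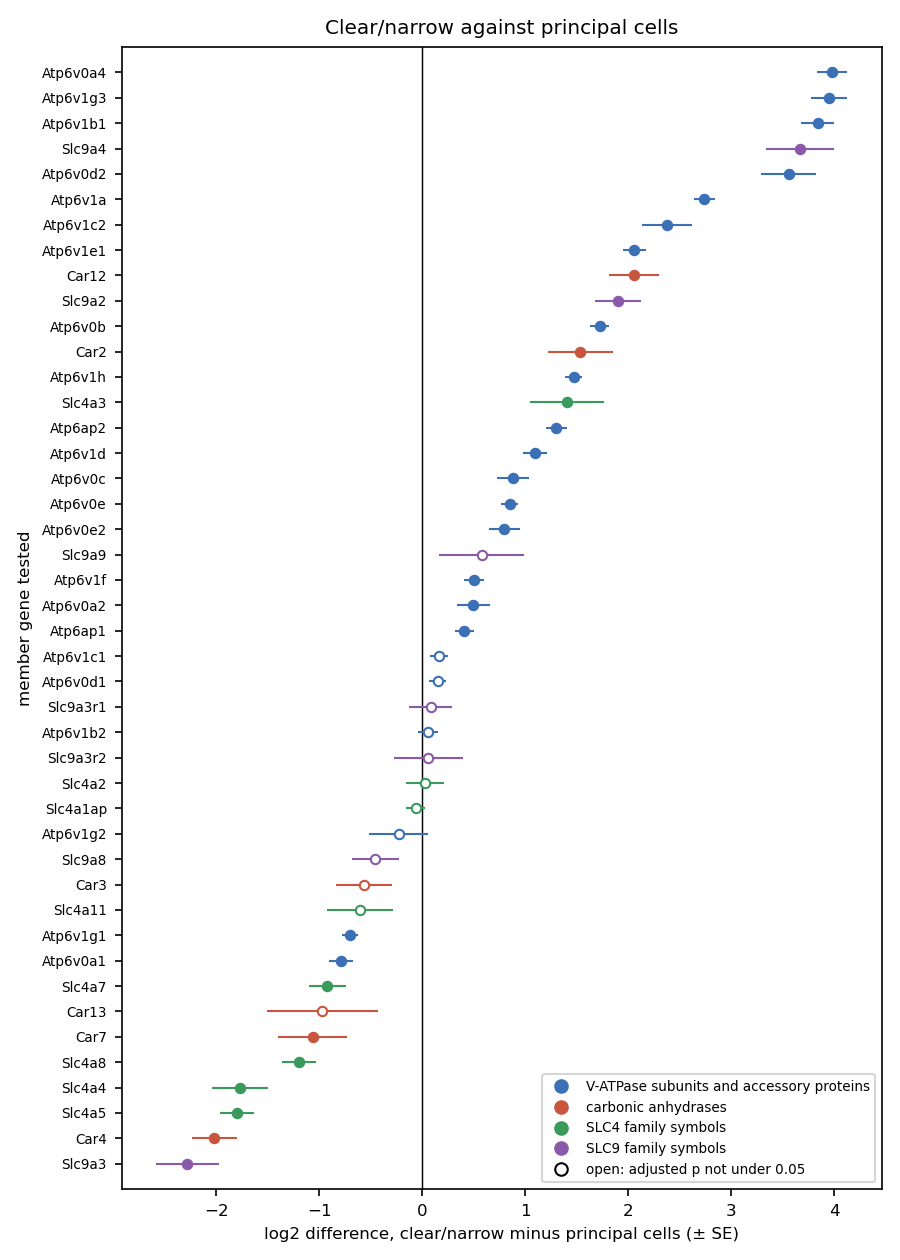
Log2 difference of the tested members reported here, clear/narrow minus principal cells, with its standard error from edgeR over 9 libraries; colours give the family and open circles members without a call. Atp6v0a4, Atp6v1g3 and Atp6v1b1 lie near 4, the widespread isoforms Atp6v1b2, Atp6v1c1 and Atp6v0d1 near 0, and Slc9a3 at -2.28.

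The isoform pairs can be read as shares, which do not depend on the scaling of libraries. In clear/narrow cells Atp6v1b1 gave a median of 74.9% of the UMIs of the B subunit genes over 9 libraries (67.3% to 77.0%), against 16.6% in principal cells (10.4% to 32.6%). The share of Atp6v0a4 in the UMIs of Atp6v0a4, Atp6v0a1 and Atp6v0a2 was 84.4% (78.9% to 87.7%) against 17.1% (10.0% to 41.6%). An a subunit gene with another kind of symbol was not counted. Atp6v0d2 gave 89.2% of the d subunit UMIs against 44.7%, and Atp6v1g3 gave 91.3% of the G subunit UMIs against 32.1%. The clear/narrow range lay above the principal range for each of these 4 subunits. For the C subunit the ranges overlapped, 70.3% to 85.1% for Atp6v1c2 in clear/narrow cells and 10.9% to 70.8% in principal cells. Within each of the 9 libraries this share too was higher in clear/narrow cells. These shares compare cell types within a pair and, being molecules captured rather than levels per length, do not rank the 2 genes of a pair.

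**Figure D3:**
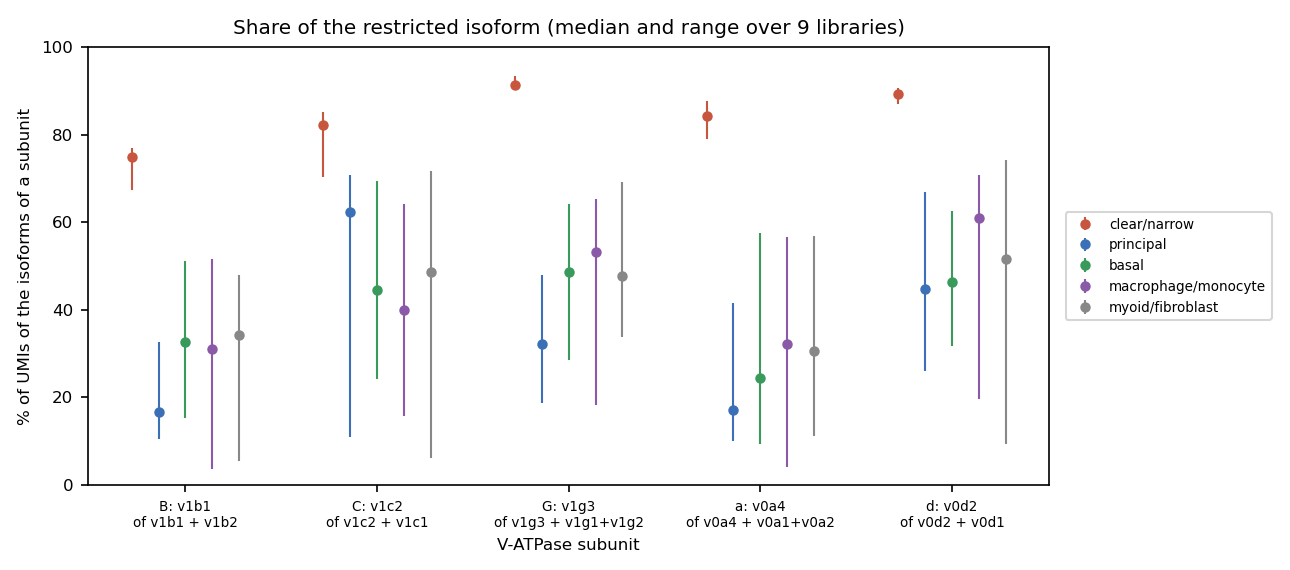
Share of the UMIs of a V-ATPase subunit's isoform genes among the members given by the isoform known from proton-secreting cells, in percent; points are medians and bars the range over 9 libraries, in 5 gated cell types. The clear/narrow points lie between 74.9% and 91.3%, and the principal points between 16.6% and 62.3%.

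UMIs of these genes were also found outside clear/narrow cells. Atp6v1g3 gave 25.0 UMIs per Atp6v1b1 UMI in clear/narrow cells, 24.7 in principal, 21.5 in basal, 23.1 in macrophage/monocyte, 22.2 in endothelial, 23.5 in myoid/fibroblast and 25.4 in sperm cells. The ratio thus lay in a narrow range in these types, including those outside the epithelium, where Atp6v1g3 had mean levels of 261 to 350 CPM and principal cells only 158 CPM. Atp6v0a4 gave 1.285 UMIs per Atp6v1b1 UMI in clear/narrow and 1.238 in principal cells, but 0.974 in basal and 2.286 in ciliated cells, the latter from 21 Atp6v1b1 UMIs. Principal cells had been gated with a limit on UMIs of the other lists. Without that limit, chosen after seeing the data, the log2 differences were 3.66 for Atp6v1g3, 3.55 for Atp6v1b1 and 3.67 for Atp6v0a4. How much of the level outside clear/narrow cells came from free RNA was not tested.

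Among the carbonic anhydrases, Car2, the cytosolic enzyme linked to proton secretion, was at 278 to 932 CPM in clear/narrow cells (median 493) and 32.6 to 340 CPM in principal cells (median 113). These ranges overlapped across segments, but within each of the 9 libraries Car2 was higher in clear/narrow cells, by 1.53 (SE 0.31, adjusted p = 0.000263) on the log2 scale. Car12, a membrane enzyme with an extracellular active site, had 9.59 to 59.4 CPM against 3.21 to 11.99 CPM and differed by 2.05 (SE 0.24). Car4, an enzyme anchored on the outer face of the membrane, was lower by a log2 difference of -2.02 (SE 0.22). Car7, a cytosolic enzyme, was lower by -1.06 (SE 0.34), a call lost with library totals alone (-0.62, adjusted p = 0.121).

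Of 8 Slc4a symbols tested, 1 was higher and 4 were lower in clear/narrow cells (21.7% and 31.7% of all genes). The exchangers usually named for bicarbonate exit gave little signal: Slc4a9 (AE4) had at most 2.52 CPM in a clear/narrow sample and Slc4a1 (AE1) at most 1.09 CPM, where 3 UMIs correspond to 0.945 to 3.49 CPM. Slc4a2 (AE2) had a mean of 6.32 ± 4.51 CPM (SD, n = 9) against 4.33 ± 1.92 CPM and was not called (log2 difference 0.02, SE 0.18). Slc4a3 (AE3) was higher by 1.40 (SE 0.36), from 2.79 CPM on average. The sodium-bicarbonate cotransporter genes were lower, Slc4a5 by -1.80 (SE 0.17), Slc4a4 by -1.77 (SE 0.27) and Slc4a7 by -0.92 (SE 0.18), as was the sodium-driven exchanger gene Slc4a8 by -1.19 (SE 0.16).

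The SLC9 exchangers divided between the epithelial types. Slc9a2 (NHE2) had 18.1 to 56.3 CPM in clear/narrow cells and 1.97 to 19.5 CPM in principal cells, a log2 difference of 1.90 (SE 0.22). Slc9a4 (NHE4) was rare, with 1.16 to 9.28 CPM against at most 0.426 CPM, and differed by 3.67 (SE 0.33). It had 1 to 7 UMIs in a principal sample and passed the filter on low counts through clear/narrow cells, where it was high. The test of Slc9a4 is therefore not independent of that selection. Slc9a3 (NHE3), the apical exchanger of principal cells, was lower in clear/narrow cells by a log2 difference of -2.28 (SE 0.30). Slc9a3r1, which encodes the NHE3 scaffold NHERF1, was not called (0.08, SE 0.21), but with library totals alone it was called higher, by 0.53. A list of 36 other genes tied to proton secretion includes chloride, bicarbonate, ammonia, lactate and further sodium-proton transporter genes and V-ATPase assembly or regulatory factors. Of these, 25 were tested, 12 were higher and 5 lower (21.7% and 31.7% of all genes). Among the larger differences were those of the chloride-proton exchanger gene Clcn5 (3.95, SE 0.19) and of the adhesion receptor gene Adgrf5 (3.86, SE 0.15), and in the other direction those of Cftr (-2.19, SE 0.25), the lactate transporter gene Slc16a1 (-2.08, SE 0.21) and Slc26a7 (-1.88, SE 0.36).

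Basal cells had higher levels of a pair of carbonic anhydrase genes than principal cells and lower levels of many other members. Of 46 members tested, 3 were higher and 25 lower in basal cells, while 19.2% of all genes were called higher and 29.6% lower. The split depended on scaling. With library totals alone 13 members were higher and 14 lower, and of all 12862 genes 6093 were higher and 1384 lower. With both scalings 3 higher and 14 lower members were called. The 3 higher members were Car12, Car13 and Slc9a9. Car12 had 19.5 to 98.5 CPM in basal cells (median 44.4), and a log2 difference of 2.72 (SE 0.24, adjusted p = 4.01e-09). Car13, a cytosolic enzyme, had 2.53 to 11.1 CPM against 0.101 to 1.11 CPM, and its difference was 3.65 (SE 0.28). In 9 of 9 libraries each gene was higher in basal cells, and the Car13 ranges did not overlap. Car13 had 2 to 15 UMIs in a principal sample and passed the filter on low counts through basal cells, where it was high. Its test and separate ranges are therefore not independent of that selection. Slc9a9 (NHE9), an endosomal exchanger gene, differed by 1.97 (SE 0.36). Car2 was lower by a log2 difference of -1.30 (SE 0.31) and Car4 by -1.42 (SE 0.20), calls that held with both scalings. Of the V-ATPase genes, 13 of 23 were called lower and none higher with TMM. With library totals alone only Atp6v0a1, Atp6v0e2, Atp6v1b2, Atp6v1c1 and Atp6v1g1 stayed called lower. Of the 13, 4 turned positive, at 0.02 to 0.05: Atp6v0b, Atp6v0d1, Atp6v1e1 and Atp6v1f. Atp6v1b1 (0.81), Atp6v1g3 (0.57), Atp6v1a (0.54), Atp6ap2 (0.46), Atp6v1h (0.39) and Atp6ap1 (0.25) were then called higher. Of 25 partner genes tested, 3 were higher and 7 lower.

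Some members had their highest mean in a gated type that was not compared here, and a few are given as levels without a test. Slc9a3r2, which encodes the scaffold NHERF2, had 9.97 to 288 CPM in endothelial cells (median 102), compared with means of 2.67 to 11.9 CPM in the other types. Slc9a9 reached 5.67 to 98.9 CPM in macrophages/monocytes, with the highest value in the P42 cauda. Sperm had Atp6ap1l at 0 to 228 CPM (median 14.9) and Atp6v1e2, the E subunit isoform of the testis, at 0 to 31.4 CPM (median 3.88), and for both genes this was the highest mean of any type. Slc4a4 averaged 48.9 CPM in ciliated cells of 4 libraries and 28.6 CPM in myoid cells/fibroblasts.

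Segments were compared with the pool as a block, in all cells together and within 3 epithelial types. In all cells 18 of 55 members tested were called (32.7%, against 29.0% of all genes), among them 3 of 26 V-ATPase genes, 4 of 10 carbonic anhydrases, 6 of 9 Slc4a symbols and 5 of 10 Slc9a symbols. Of the 18, 17 were called in the same direction with library totals alone. Sums over all cells follow both the share of each cell type and its RNA per cell, and the 2 cannot be told apart. The count fell to 9 without caput P56 replicate 1 and to 11 without corpus P56 replicate 1, and rose to 29 without the P42 cauda. The 8 members called whichever library was left out included Atp6ap1l, Atp6v1g2, Car4, Car7, Slc9a2, Slc9a3 and Slc9a3r1. Of 31 partner genes tested, 9 were called.

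As a part of all UMIs, the summed level of the pump in all cells was highest in the caput in each of the 3 pools. These sums are scaled by library totals alone, mitochondrial UMIs included. That scaling moved the median difference of all genes from the caput by -0.16 in the corpus and -0.24 in the cauda, relative to TMM. In P56 replicate 1 mitochondrial UMIs were 6.89%, 18.6% and 17.5% of the caput, corpus and cauda libraries. The order of the sums without these UMIs or with TMM factors was not computed. The summed level was 3632, 3242 and 2128 CPM in caput, corpus and cauda of the P42 pool, 3226, 2944 and 2956 CPM in those of P56 replicate 1, and 3830, 3044 and 3222 CPM in those of P56 replicate 2. The called V-ATPase genes were the rarely detected Atp6ap1l and Atp6v1e2 and the G subunit isoform Atp6v1g2. Atp6v1g2 was at 12.01 to 12.9 CPM in the caput and 1.54 to 3.11 CPM elsewhere, with a log2 difference of -2.17 (SE 0.23) in the corpus and -2.42 (SE 0.23) in the cauda. Atp6ap1l fell from 1.40 to 7.93 CPM in the caput and 0.752 to 1.48 CPM in the corpus to 0 to 0.0536 CPM in the cauda, where 3 UMIs correspond to 0.0736 to 0.161 CPM. Atp6v1e2 had 0 UMIs in all 3 cauda libraries, and 9 to 49 in the others except the P42 caput, which had 7. The 9 sperm markers summed to 143 to 1151 CPM in caput libraries, 363 to 902 CPM in corpus libraries and 15.3 to 357 CPM in cauda libraries, and their part in the pattern of these last genes was not tested.

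Of the 4 carbonic anhydrases called between segments in all cells, Car4 was the most abundant. It had 358 CPM in the P42 corpus and 511 and 440 CPM in the P56 corpus libraries, against 2.52 to 5.15 CPM in the caput and 2.04, 21.2 and 1.62 CPM in the cauda, where replicate 1 of P56 was the highest. The corpus exceeded the caput by a log2 difference of 6.79 (SE 1.02, adjusted p over segments = 0.00284). In the corpus it was found in every gated type with at least 10 cells, which leaves out ciliated cells, at 514 to 598 CPM in principal cells, 219 to 361 in basal cells, 114 to 208 in clear/narrow cells, 155 to 450 in macrophages/monocytes and 389 to 481 in sperm. Car7 had the reverse pattern, with 14.6, 16.2 and 10.5 CPM in the caput libraries and at most 0.747 CPM elsewhere (corpus minus caput -4.43, SE 0.31), and in the caput it too was found in each type, with 5.32 to 9.38 CPM in clear/narrow and 13.2 to 13.98 CPM in macrophages/monocytes. The part of free RNA in these values was not tested. Car14, a membrane enzyme, had 1.88, 3.02 and 3.19 CPM in the cauda and 0.0868 to 0.806 CPM elsewhere (cauda minus caput 3.41, SE 0.77), and was called in 5 of 9 fits with a library left out. Car2 in all cells was at 248, 330 and 354 CPM in the corpus, above the caput (104 to 146 CPM) and the cauda (44.6 to 151 CPM), but was not called (adjusted p = 0.0584), and with library totals alone it was (adjusted p = 0.0351).

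**Figure D4:**
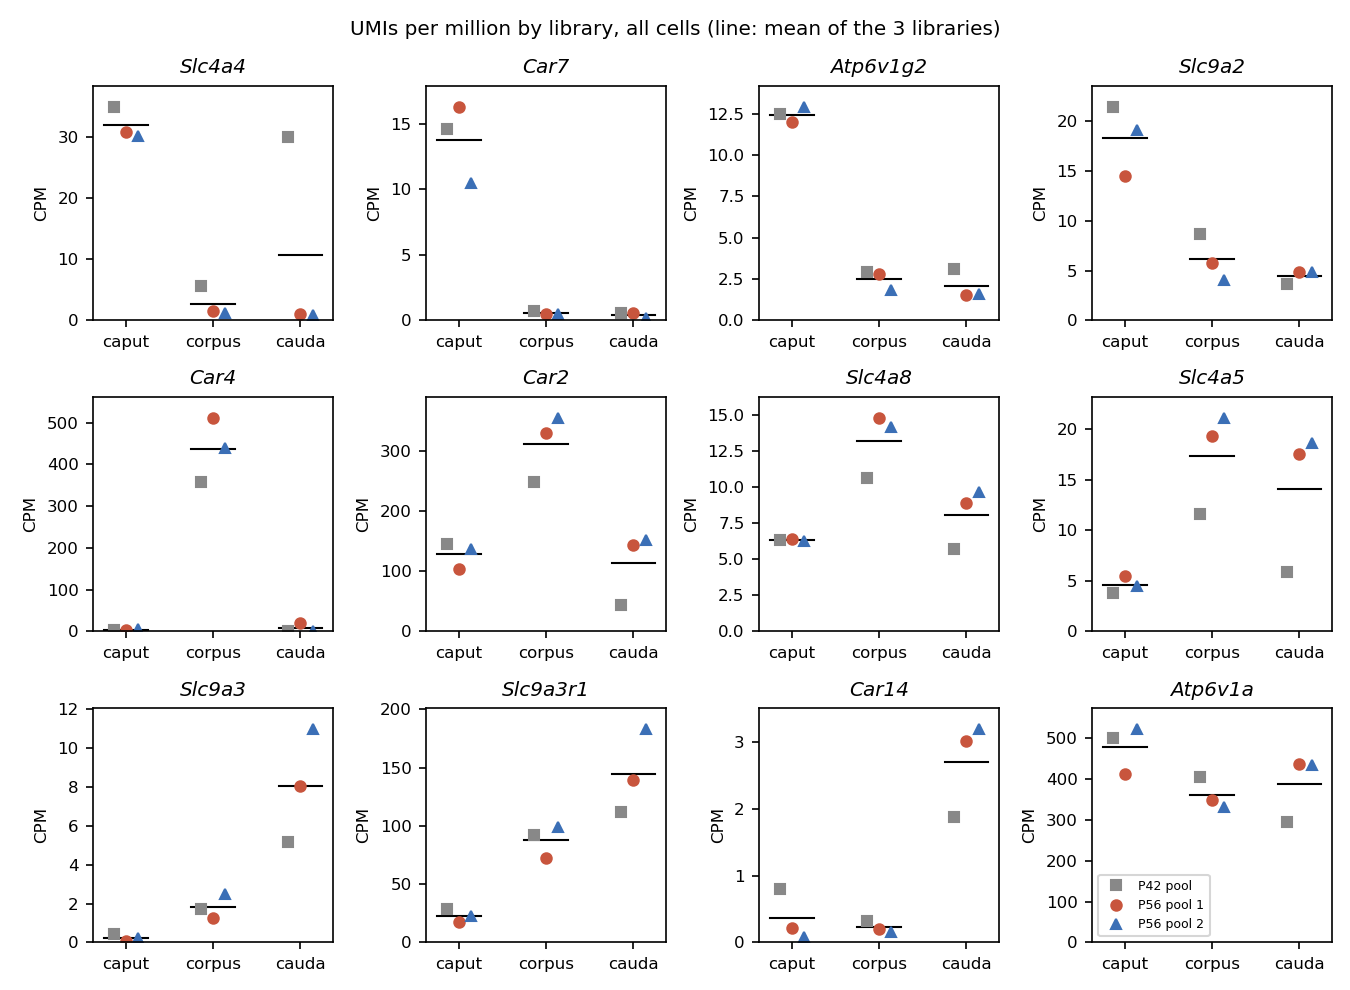
Level of 12 members in all cells, in CPM from 0, by segment; grey squares are the P42 pool, red circles P56 replicate 1, blue triangles P56 replicate 2, and lines the mean of 3 libraries. Car4 stands at 358 to 511 CPM in the corpus, Car7 and Atp6v1g2 are highest in the caput, Slc9a3 and Slc9a3r1 rise towards the cauda, and Atp6v1a, at 295 to 523 CPM, was not called.

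Transcripts of the exchanger gene Slc9a3 rose from caput to cauda. Slc9a3 was at 0.0955 to 0.421 CPM in the caput, 1.27 to 2.51 CPM in the corpus and 5.14 to 10.97 CPM in the cauda, and the 3 segments did not overlap. The cauda exceeded the caput by a log2 difference of 5.33 (SE 0.59, adjusted p over segments = 0.00198). Slc9a3 had 3 to 12 UMIs in a caput library and passed the filter on low counts through corpus and cauda, where it was high. Its test and separate ranges are therefore not independent of that selection. The scaffold gene Slc9a3r1 rose with Slc9a3, from 17.7 to 28.9 CPM through 72.2 to 99.5 CPM to 112 to 183 CPM (cauda minus caput 2.90, SE 0.31). Slc9a2 fell from 14.5 to 21.4 CPM in the caput to 3.64 to 8.70 CPM elsewhere. Slc9a3r2 was also called lower outside the caput, yet in only 2 of 9 fits with a library left out.

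Bicarbonate transporters moved in both directions. Slc4a4 (NBCe1) was at 34.8, 30.7 and 30.0 CPM in the caput and 5.61, 1.46 and 1.18 CPM in the corpus, and in the cauda at 29.9 CPM in the P42 pool but 1.06 and 0.908 CPM at P56. It was called (adjusted p over segments = 0.0215), in 4 of 9 fits with a library left out. In the P42 cauda its level was 80.5 CPM in myoid cells/fibroblasts and 16.5 CPM in principal cells. Slc4a5 (NBCe2) was higher in the corpus than in the caput, by a log2 difference of 2.01 (SE 0.34). So were Slc4a7 (NBCn1) by 0.99 (SE 0.17) and Slc4a8 by 1.17 (SE 0.25), the latter called in 3 of 9 fits with a library left out. Slc4a5 and Slc4a7 were above the caput in the cauda too, Slc4a7 by 1.06. Slc4a10 and Slc4a11 were called at levels under 4 CPM, in 4 of 7 and 6 of 9 such fits. Among the partner genes Cftr, a channel for chloride and bicarbonate, fell most among those called, from 12.1, 15.2 and 13.0 CPM in the caput to at most 0.228 CPM in the corpus and 0.0536 CPM in the cauda, and Slc16a1 rose from 2.93 to 4.91 CPM in the caput to 16.3 to 61.6 CPM in the cauda.

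In principal cells 26 of 48 members tested were called (54.2%, against 44.0% of all genes), all in the same direction with library totals alone: 8 of 23 V-ATPase genes, 6 of 8 carbonic anhydrases (Car3 among them, which entered through the P42 corpus and cauda with 54 and 305 UMIs and had 1 to 4 elsewhere), 5 of 8 Slc4a symbols and 7 of 9 Slc9a symbols. Without corpus P56 replicate 1 the count was 17, and 16 members were called whichever library was left out. Slc9a3 went from 0.0504 to 0.284 CPM in the caput to 9.83 to 13.3 CPM in the cauda, and Slc9a3r1 from 13.7 to 20.9 CPM to 159 to 218 CPM. Here too Slc9a3, with 1 to 4 UMIs in a caput library, passed the filter on low counts through corpus and cauda. Slc4a4 was at 47.5, 33.8 and 36.4 CPM in the caput and at most 1.49 CPM in the corpus. Car2 was highest in the corpus, 307, 334 and 340 CPM, lower in the caput with 149, 88.7 and 113 CPM, and lowest in the cauda with 32.6, 71.7 and 63.9 CPM, with no overlap and an adjusted p over segments of 0.00328. The V-ATPase isoforms went opposite ways. Atp6v0d2 fell from 72.2 to 104 CPM in the caput to 11.5 to 20.4 CPM in the corpus, and Atp6v1c2 rose from 4.54 to 11.3 CPM to 46.6 to 47.8 CPM (corpus minus caput -2.35, SE 0.24, and 2.53, SE 0.36). The ubiquitous Atp6v1g1 was at 321 to 362 CPM in the caput, 410 to 427 CPM in the corpus and 202 to 264 CPM in the cauda, and was called in 3 of 9 fits with a library left out. Of 28 partner genes tested, 16 were called.

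In clear/narrow cells 12 of 39 members tested were called (30.8%, against 16.8% of all genes): 3 of 23 V-ATPase genes, all 5 carbonic anhydrases tested, 2 of 6 Slc4a and 2 of 5 Slc9a symbols. With library totals alone 9 of the 12 stayed. Without the pool as a block 5 were called and with a stricter gate 4, and the count was 7 without caput P56 replicate 1 or cauda P56 replicate 1 and 19 without the P42 cauda. The called V-ATPase genes were Atp6v1c2, higher in the cauda than in the caput by 0.90 (SE 0.20), Atp6v0e2 by 0.87 (SE 0.20) and Atp6v1f by 0.68 (SE 0.17). With a library left out they were called in 5, 5 and 2 of 9 fits, and with library totals alone Atp6v0e2 and Atp6v1f were not called. Atp6v1e1 (0.66) and Atp6v1h (0.60) had values of like size and were not called over segments (adjusted p = 0.0697 and 0.0627). Atp6v1a was at 1785 to 2164 CPM in the caput, 1669 to 1885 CPM in the corpus and 2124 to 2274 CPM in the cauda, and Atp6v1b1 at 98.5 to 157, 103 to 170 and 105 to 126 CPM, and neither was called. Car2 rose, with 278, 281 and 395 CPM in the caput, 399, 498 and 706 CPM in the corpus and 493, 751 and 932 CPM in the cauda. The cauda exceeded the caput by a log2 difference of 1.35 (SE 0.21, adjusted p over segments = 0.00201), while in principal cells the cauda was the lowest. Car12 was higher in the cauda than in the corpus by 1.13, and was called in 5 of 9 fits with a library left out. Car3 was called from 1 pool, with 16 UMIs in the P42 corpus, 41 in the P42 cauda and 0 in the other 7 libraries, so that it passed the filter on low counts through those libraries. Car7 had 10 to 25 UMIs in a caput library, Slc4a4 had 30 to 35, and both had 0 to 3 elsewhere. Car4 had 208 to 412 UMIs in a corpus library and 0 to 32 elsewhere. These members passed that filter through the segment where they were high. Their tests, counted above, are therefore not independent of that selection. Slc9a3r1 rose from 53.3 to 69.2 CPM in the caput to 122 to 227 CPM in the cauda (1.55, SE 0.15). Of 23 partner genes tested, 6 were called.

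Basal cells gave 16 calls among 42 members (38.1%, against 17.8% of all genes), 14 of them in the same direction with library totals alone. There were 6 calls without the pool as a block, 6 with a stricter gate, 6 without caput P56 replicate 2, 8 without caput P56 replicate 1 or cauda P56 replicate 1, and 10 without cauda P56 replicate 2. Car12 was at 98.5, 65.9 and 81.3 CPM in the caput, 52.6, 31.6 and 22.4 CPM in the corpus and 44.4, 28.4 and 19.5 CPM in the cauda, so the caput lay above both other segments (cauda minus caput -1.22, SE 0.20, adjusted p over segments = 0.000783). Car2 was highest in the corpus, at 116 to 228 CPM against 20.5 to 71.1 CPM elsewhere. Slc9a3r1 and Car4 were called here as well, with the corpus or the cauda above the caput. Car4 had 267 to 434 UMIs in a corpus library and 0 to 28 elsewhere. Car7 had 7 to 18 UMIs in a caput library and 0 to 3 elsewhere. Both passed the filter on low counts through the segment where they were high, so their tests are not independent of that selection. Of 21 partner genes tested, 5 were called.

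Whether the gap between clear/narrow and principal cells differed between the cauda and the caput was tested as an interaction. The difference was taken as clear/narrow minus principal cells, with its sign. Of 48 members, 19 had a larger and 2 a smaller difference in the cauda, while 7.35% of all genes were called larger and 6.64% smaller. A larger signed difference need not be a wider gap. Atp6v1g1, counted as larger, had means of 272 against 343 CPM in the caput and 242 against 233 CPM in the cauda. The 19 included 15 of 24 V-ATPase genes. With library totals alone 18 and 2 were called in the same direction. Without the library block 4 were called, and 10 of the 21 were called whichever library was left out. For Atp6v0d2 the caput, corpus and cauda differences were 2.03, 4.62 and 4.13, so that the interaction was 2.10 (SE 0.17, adjusted p = 8.19e-07). For Car2 they were 0.92, 0.38 and 3.26 (interaction 2.34, SE 0.23). The smaller differences were those of Atp6v1c2 (3.51 in the caput and 2.28 in the cauda) and Slc9a3r1 (1.38 and -0.69). Behind these values, the pump's summed level in clear/narrow cells was 9900 to 11007 CPM in the caput and 10775 to 11581 CPM in the cauda. Within each pool it was higher in the cauda. In principal cells the sum was 2468 to 2928 CPM and 1788 to 2241 CPM, and within each pool it was lower in the cauda. These sums too are parts of all UMIs, mitochondrial ones included. The part of free RNA in the principal-cell levels was not tested. Of 26 partner genes, 9 had a larger difference in the cauda and none a smaller one by edgeR, with 12 at an unadjusted p under 0.05 in either direction.

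The ages were compared over the 3 segments, in all, principal and clear/narrow cells. P42 was 1 pool, so age and pool cannot be told apart, and the test takes the P42 libraries to vary like those of P56. It has no block for the pool and counts a pool's 3 segments, which share mice and whose deviations correlated at 0.249 to 0.782 in all cells, as separate samples, so its p-values do not measure the spread between pools. The direction depended strongly on scaling. In all cells 21 of 58 members were called higher and 11 lower at P56 (21.1% and 22.2% of all genes). With library totals alone the median of all genes moved by -0.59 and the split was 6 higher and 19 lower. Of all 21208 genes, 879 were then called higher and 10100 lower. The 10 most abundant genes took 15.1% to 17.4% of UMIs in the P42 libraries and 20.8% to 29.8% in those of P56. In principal cells the split was 17 higher and 5 lower of 50 members (18% and 16.0% of all genes). With library totals alone it was 1 and 19 (348 and 8636 of all 18020 genes). In clear/narrow cells the split was 13 and 2 of 43 members (12.7% and 10.6% of all genes). With library totals alone it was 2 and 12 (284 and 4558 of all 11878 genes). Of the partner genes, 13 of 31 tested were called in all cells, 11 of 28 in principal and 7 of 24 in clear/narrow cells with TMM. Only members called in the same direction with both scalings are described by direction here, 17 in all cells, 6 in principal and 4 in clear/narrow cells.

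In all cells these were 6 higher and 11 lower members. Car2 was higher at P56, at 330 and 354 against 248 CPM in the corpus and 143 and 151 against 44.6 CPM in the cauda, but not in the caput, where the P42 library had 146 CPM and the P56 libraries 104 and 137 CPM. The log2 difference was 1.23 (SE 0.10) with TMM and 0.64 with library totals. The 15 markers of clear/narrow cells, the type with the highest mean of Car2 and most V-ATPase genes, summed to 578 CPM in the P42 cauda against 1302 and 1275 CPM in the P56 cauda, but to 1618 CPM in the P42 corpus against 1115 and 1468 CPM and to 1699 CPM in the P42 caput against 929.6 and 1523 CPM, and their part in these differences was not tested. Slc4a5 was higher in each segment, by 1.53 (SE 0.15) with TMM and 0.93 with library totals. The V-ATPase genes Atp6v0e and Atp6v1g1 were higher by 1.001 (SE 0.10) and 0.97 (SE 0.11) with TMM and by 0.41 and 0.37 with library totals. Atp6v1d and Slc4a8 were the remaining higher members. Car2 and Car4 were the 2 called higher in clear/narrow cells with both scalings, Car2 in 6 of 6 fits with a P56 library left out and Car4 in 1 of 6, and Atp6v0c was 1 of the 2 called lower. In principal cells the only member higher with both was Slc4a5, and the lower ones were Car3, Slc4a3, Slc4a4, Slc9a3r2 and Slc9a9. Each lower one changed most in the cauda, where the P42 library stood apart. Gates were scaled to each list's share in its own library. In the P42 cauda, where myoid/fibroblast and macrophage markers summed highest, the limit on these markers in principal cells was therefore looser. The part of this in the calls was not tested. In caput and cauda, each with 1 P42 library, Slc4a4 differed by -0.08 and -4.27, Slc9a9 by 0.47 and -3.46 and Car3 by -0.42 and -9.32. Slc4a3 differed by -1.19 and -2.90 and Slc9a3r2 by -1.31 and -4.29.

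Car3, a cytosolic enzyme of muscle and fat, was called lower at P56 by a log2 difference of -5.82 (SE 0.35), a call that rests on 2 libraries. It had 419 UMIs in the P42 corpus, 920 in the P42 cauda and 1 to 7 in the other 7 libraries, and so passed the filter on low counts through the libraries where it was high. It was at 22.4 CPM in the P42 corpus and 49.3 CPM in the P42 cauda, and at most 0.245 CPM in each of the other 7 libraries, P42 caput included. In the P42 cauda it was found in every gated type, at 56.4 CPM in principal, 47.7 in clear/narrow, 15.4 in basal and 88.3 in sperm cells. In the P42 corpus it was at 429 CPM in sperm and 6.203 CPM in principal cells. A list of 7 adipocyte genes, chosen after seeing the data, summed to 20.4 to 53.2 CPM in the P42 libraries and 1.21 to 5.82 CPM at P56. Fabp4, which endothelial cells also express, gave 344 to 972 UMIs in the P42 libraries and 18 to 109 UMIs at P56. In the P42 caput, where Car3 had 7 UMIs, Fabp4 had 597. The other genes of the list had few UMIs and went both ways. In the cauda, in the order P42, P56 replicate 1 and P56 replicate 2, Plin1 had 19, 67 and 100 UMIs, Adipoq 9, 2 and 4, Retn 6, 0 and 1 and Cfd 3, 0 and 2. In the caput, in the same order, Adipoq had 2, 14 and 44 UMIs. The part of fat or muscle tissue in the level of Car3 was not tested.

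The other lower members included genes seen above in non-epithelial cells. Slc9a3r2 was at 30.6, 9.02 and 15.9 CPM in the P42 caput, corpus and cauda and 0.687 to 6.22 CPM at P56 (-2.18, SE 0.30), and the 11 endothelial markers summed to 526, 156 and 103 CPM in the same P42 libraries and 17.0 to 113 CPM at P56. Slc9a9 was at 2.80, 6.83 and 23.5 CPM in the P42 caput, corpus and cauda and 0.951 to 2.43 CPM at P56 (-1.74, SE 0.21), and the 11 macrophage/monocyte markers summed to 796 to 4874 CPM at P42 and 174 to 595 CPM at P56. None of these markers was at 0 in any library. Slc4a3 (-1.81, SE 0.29) and Car11 (-0.89, SE 0.20) were lower, with both P56 libraries below the P42 library in each of the 3 segments. Slc4a4 (-1.81, SE 0.12) was lower in the cauda by a log2 difference of -4.16 and in the corpus by -1.44, and its value in the caput was 0.19, each from 1 P42 library. Car9 (-2.10, SE 0.70) had a mean of 0.527 CPM at P42, and in the caput the P42 library (0.350 CPM) lay between those of P56 (0.159 and 0.376 CPM). The V-ATPase genes called lower were Atp6v0a2 (-0.50, SE 0.13), Atp6v0c (-0.66, SE 0.12) and Atp6v0c-ps2 (-1.04, SE 0.34), at -1.09, -1.25 and -1.63 with library totals. With a P56 library left out, Atp6v0c-ps2 was called in 3 of 6 fits and Car9 in 4 of 6. The part of the makeup of cells in these differences was not tested.

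**Figure D5:**
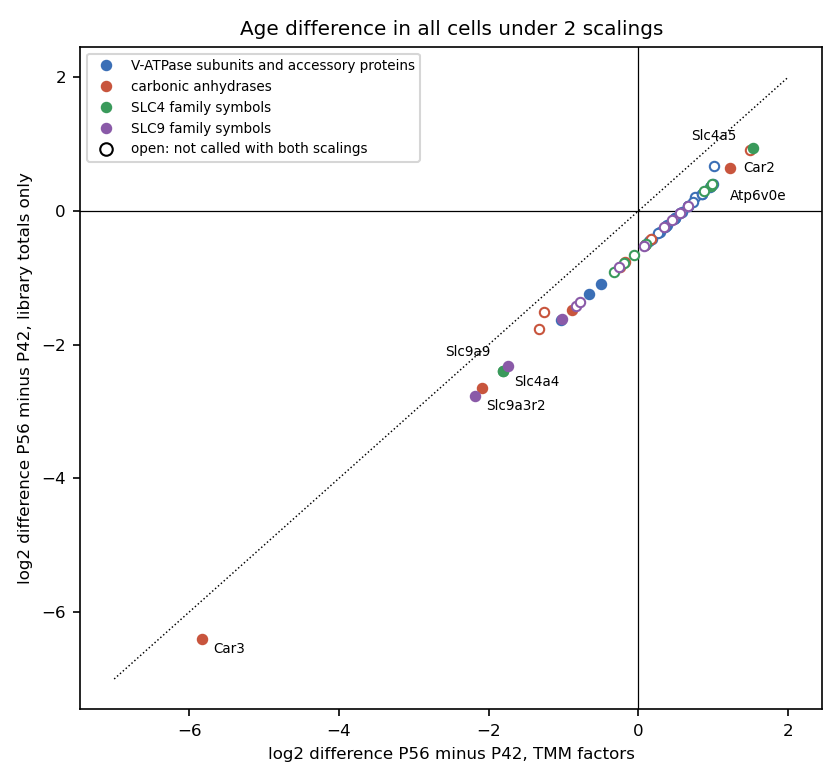
Log2 difference between P56 and P42 in all cells for each tested member, with TMM factors on the x axis and with library totals alone on the y axis; filled circles are the 17 members called in the same direction with both, and the dotted line marks equal values. The points lie below the dotted line, so 21 members are called higher with TMM and 6 with library totals, while Car3 lies at -5.82 with TMM.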

How the data were processed

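Single-cell libraries of the caput, corpus and cauda were analysed from the UMI counts the authors deposited, raw and without normalization. The authors trimmed reads, assigned barcodes with UMI-tools, mapped reads with STAR 2.7.3a to GRCm38.p6 and counted exon UMIs per gene. The table held 307987941 UMIs, 23114756 to 50655384 per library, and 0 sample columns were unused. Sequences came from RefSeq's promoter table of GRCm38.p6.

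Barcodes with 300 to 4000 genes, at most 20000 UMIs and under 50% mitochondrial UMIs were kept, and globin-rich cells (10% or more) were set aside. Mitochondrial UMIs were 6.52% to 6.89% of a caput library, 14.7% to 23.1% of a corpus library and 10.4% to 17.5% of a cauda library. A type needed at least 5 marker UMIs, 3 times the list's share in its library and 2 times any other list, principal cells a share of at least 0.5 with other lists limited, and cells meeting several gates were left out as mixed. No doublet caller was run. UMIs were summed per library and type with at least 10 cells. edgeR 4.0.16 (filterByExpr, TMM, quasi-likelihood test, R 4.3.3) was fitted to all genes. A call needed an adjusted p under 0.05, over all genes tested. Because a pool's 3 segments were taken from shared mice, pool entered the segment fits as a block. Deviations of libraries of a pool correlated at 0.156 to 0.782 in the types checked. The test for age had no block. Scripts were tested on simulated data. Figures were drawn with matplotlib 3.10.9.

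The members and lists were chosen with earlier results of these data known. Named genes were the 12 called members with the largest change shared by all pools, a textbook set, members of at least 50 CPM in a type, and the 3 largest partner changes a direction. Members outside that rule were named after their values were seen. No fit tested 4 members. Values of some genes are not reported here. Alternatives were DESeq2 1.42.0, DESeq2-type size factors, no filter, mitochondrial genes left out, a limit on detected genes only, a stricter gate, no block and each library left out. Library totals alone and the looser principal gate were added after seeing the data. Values of 3 UMIs give what a count of 0 allows, for counting error only.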

Additional observations from a re-analysis of the deposited data

Results flagged for a closer look

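The log2 difference between clear/narrow and principal cells was not the same in the cauda as in the caput for 21 members, 20 of them given here, by the interaction term of edgeR over 9 libraries and all genes. Of the V1 genes, the change from caput to cauda was 0.68 for Atp6v1a, 1.04 for Atp6v1b1, 0.71 for Atp6v1c1, -1.23 for Atp6v1c2, 0.97 for Atp6v1d, 1.02 for Atp6v1e1, 0.90 for Atp6v1f, 0.48 for Atp6v1g1, 2.22 for Atp6v1g2, 0.84 for Atp6v1g3 and 0.67 for Atp6v1h. Of the V0 genes, it was 0.85 for Atp6v0a4, 0.58 for Atp6v0b, 0.72 for Atp6v0d1, 2.10 for Atp6v0d2 and 0.64 for Atp6v0e. Outside the pump it was 2.34 for Car2, 1.48 for Car12, 1.502 for Slc9a2 and -2.07 for Slc9a3r1. The 10 members called whichever library was left out were Atp6v0d2, Atp6v0e, Atp6v1a, Atp6v1d, Atp6v1e1, Atp6v1f, Atp6v1g2, Car2, Slc9a2 and Slc9a3r1. Libraries from P42, where the cauda had 154 clear/narrow cells, entered this test as 1 of 3 pools.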

How the results depend on the processing

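With the main setting, 18, 26, 12 and 16 members were called between segments in all, principal, clear/narrow and basal cells. When the libraries were dropped singly the counts were 9 to 29, 17 to 29, 7 to 19 and 6 to 17. The same range was 31 to 34 around 32 for clear/narrow against principal cells, 26 to 28 around 28 for basal against principal cells, 14 to 21 around 21 for the interaction, and 28 to 32, 19 to 22 and 12 to 14 around 32, 22 and 15 for age in all, principal and clear/narrow cells. Ages could not be fitted without a P42 library, which leaves that segment with no P42 sample. A stricter gate gave 4 members in clear/narrow and 6 in basal cells between segments. Without the replicate block, 5 were called in clear/narrow cells, 6 in basal cells and 4 in the interaction, and the block moved no other count of members by over 1.5 times. Over all genes, counts without the block were 3689 against 5664 between segments in all cells, 957 against 1807 in clear/narrow cells, 1141 against 1958 in basal cells and 354 against 1961 in the interaction. A stricter gate gave 1058 in clear/narrow and 1015 in basal cells. For age in clear/narrow cells DESeq2 called 1067 and the stricter gate 1523, against 2767.

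Library totals alone, added after seeing the data, reversed 22 called changes, 21 of which are given here. For age in all cells these were Atp6ap1 (-0.23), Atp6ap2 (-0.11), Atp6v0a4 (-0.026), Atp6v0b (-0.10), Atp6v1b1 (-0.21), Atp6v1c1 (-0.25), Atp6v1e1 (-0.011), Atp6v1h (-0.12) and Slc9a3r1 (-0.038). In principal cells they were Atp6ap1 (-0.25), Atp6v0b (-0.22), Atp6v0d2 (-0.023), Atp6v1e1 (-0.16), Atp6v1h (-0.24) and Slc4a8 (-0.027), and in clear/narrow cells Atp6v0d1 (-0.092) and Atp6v1a (-0.0092). Between basal and principal cells they were Atp6v0b (0.034), Atp6v0d1 (0.053), Atp6v1e1 (0.022) and Atp6v1f (0.055). The median of all genes moved with it by -0.59, -0.56 and -0.48 for age in all, principal and clear/narrow cells and by 0.44 and 0.45 for clear/narrow and basal against principal cells. The share of calls that were higher moved for clear/narrow against principal cells from 40.6% to 75.3% (30.4% with no filter), for basal from 39.3% to 81.5%, for the interaction from 52.5% to 42.1%, and for age from 48.7% to 8.01%, from 52.9% to 3.87% and from 54.6% to 5.87% (70.4% with DESeq2). No other setting reversed a member. Over the changes called in the main setting and the other settings, 3143 values kept their call and 373 lost it. Members that gained a call were not counted. Clear/narrow cells of the P42 cauda held 859303 UMIs, so that 3 UMIs stand for 3.49 CPM there.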
